A study of Mus musculus with 6 samples.

Results

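Integrin subunits are the members described here, and they were chosen as the genes of the deposited count table whose symbol is Itgb3, Itgav, Itgb5, Itgb1, Itgb2, Itga4, Itga5, Itga6, Itgam or Itgax. All 10 had an entry, among 19309 genes in the table, and each symbol belonged to a single gene identifier. Bulk RNA was sequenced from bone marrow-derived macrophages of 3 sEH-/- mice and 3 wild-type mice, with 1 library per mouse. The sEH-/- mice lack soluble epoxide hydrolase, encoded by Ephx2, in every cell through a constitutive deletion, and the wild-type mice were strain-matched littermates. The methods name C57BL/6N mice, cells mostly from females, and donors of 8 to 10 weeks for bone marrow. In both groups the cells were grown for 7 days in M-CSF and GM-CSF and polarized to the M1 state with IFN-γ and LPS. By the labels, TGF-β1 was added 24 h later and kept on for 48 h, which yields M2c macrophages, whereas the published methods put M1 polarization at 12 h and TGF-β1 exposure at 24 h or 48 h. The comparison asks how the transcripts of TGF-β1-treated macrophages differ when soluble epoxide hydrolase is missing.

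Library depth was 5818444, 5013265 and 4400197 counts in sEH-/- replicates 1 to 3, and 4632688, 6096440 and 5448287 counts in wild-type replicates 1 to 3. Levels are given as counts and as CPM, which are counts brought to a common library size by TMM normalization, a scaling of each library that limits the weight of its most abundant genes. Levels of different genes are compared only as CPM per kb of exon. A gene was called when its Benjamini-Hochberg adjusted p from edgeR was below 0.05 and its change exceeded 1.5-fold. In the order given throughout, values of replicates 1 to 3 follow each other within a group.

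Integrins are cell-surface receptors built from an alpha and a beta subunit, and the pairing sets which ligand is bound. Their beta subunits carry a short cytoplasmic tail to which talin and kindlin bind when the receptor is switched on, and this links matrix and other cells to the actin cytoskeleton. In macrophages the leukocyte integrins take up complement-coated particles and hold the cell to endothelium, whereas integrins with the alpha v subunit bind vitronectin, fibronectin and bridging proteins on apoptotic cells and can release active TGF-β from its latent complex.

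Ephx2, the deleted gene, was read first as a check of the groups. Its counts were 4, 2 and 1 across sEH-/- replicates, against 26, 49 and 57 across wild-type replicates. All sEH-/- values lay below all wild-type values, with a log2 fold change of -4.05 ± 0.43 (SE) and an adjusted p of 0.00418. The 10 macrophage markers, among which Csf1r had the most counts, were all above the minimum count in these libraries, so the cell type on the labels had its markers.

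All 10 integrin subunits passed the minimum of more than 5 counts on average, with mean counts between 409 and 2136. Of these 10 genes, 1 was called, Itgb3, which was lower in sEH-/- cells. Of all 13785 genes tested, 2.61% were called, 1.51% as higher and 1.10% as lower in sEH-/- cells. An unadjusted p below 0.05 was reached by 3221 of these 13785 genes, and by 2 of the 10 members. The number of members called was 0 without sEH-/- replicate 2 and also when either of wild-type replicates 2 and 3 was left out, whereas it was 2 when wild-type replicate 1 was left out, Itga4 being called too. Over all genes the 360 calls became 96 without sEH-/- replicate 2 and 570 without sEH-/- replicate 3, while leaving out wild-type replicates 1, 2 and 3 in turn gave 625, 25 and 6. Values of the groups did not overlap for 2 of the 10 members, Itgb3 and Itgav, or 20%, against 26.3% of all genes tested. The median log2 fold change of the members was 0.13, with 8 above 0 and 2 below, beside a median of -0.00092 and 49.8% above 0 over all tested genes. The number of members above 0 was between 7 and 9 over the 17 alternatives. Apart from Itgb3, the members had log2 fold changes between -0.15 and 0.43, and the lowest adjusted p among them was 0.113.

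**Figure D1:**
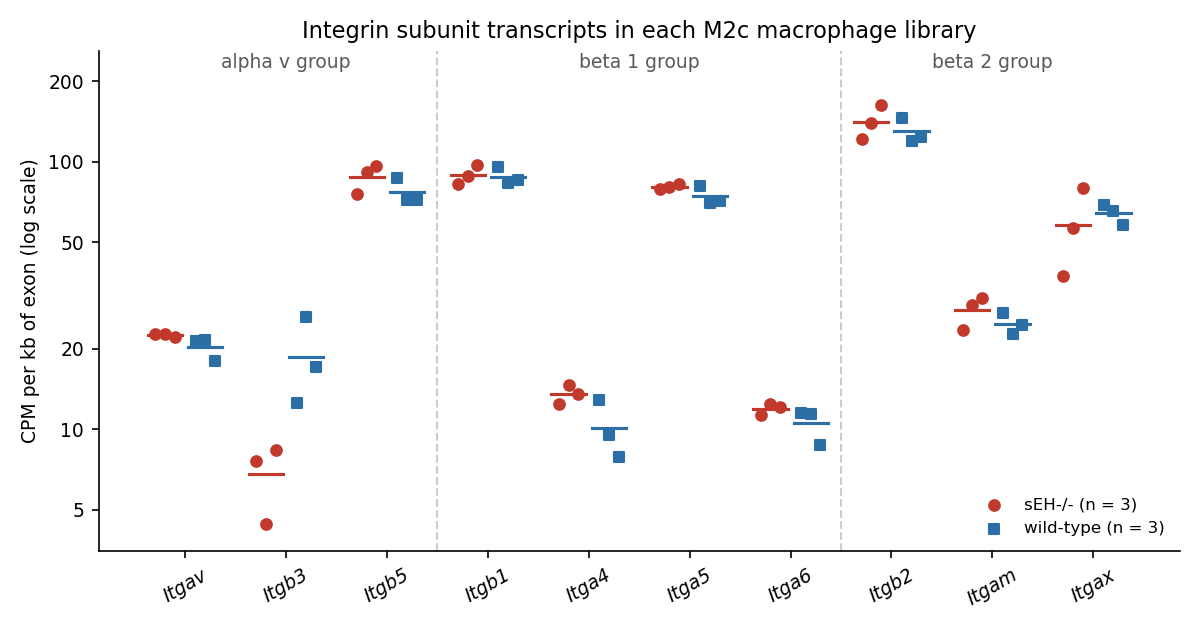
Levels of the 10 integrin subunits in CPM per kb of exon on a log axis, with 1 point per library and a line at the mean of each group (n = 3). The sEH-/- libraries of Itgb3 lay between 4.41 and 8.33 CPM per kb and its wild-type libraries between 12.5 and 26.3, while the groups overlapped in every other gene drawn except Itgav.

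The genes encoding the αv integrins and their partners are taken first. Itgb3 encodes the β3 subunit, which pairs with αv in macrophages and osteoclasts to form the vitronectin receptor and with αIIb in platelets. It lies on the plus strand at chr11:104608000-104670476 (mm10) under the identifier ENSMUSG00000020689, and no other gene of the annotation overlapped it. Itgb3 counts were 263, 129 and 212 across sEH-/- replicates, against 335, 955 and 560 across wild-type replicates, or 45.0, 26 and 49.2 CPM against 73.6, 155 and 100.4 CPM. Wild-type replicate 2 was the highest library and sEH-/- replicate 2 the lowest, and the lowest wild-type library was above the highest sEH-/- library. The wild-type libraries themselves spread widely, with an SD of 41.4 CPM around a mean of 109.7 CPM (n = 3), against 40.1 ± 12.3 CPM (SD, n = 3) in sEH-/- cells. Itgb3 changed by -1.47 ± 0.27 on the log2 scale (SE, adjusted p 0.0248). The direction was the same in the 17 alternatives, with log2 fold changes between -1.68 and -1.13 and adjusted p-values between 0.00507 and 0.195. Among these, calling by adjusted p alone and the test against the 1.5-fold threshold reuse the reported log2 fold change, so their direction was fixed. The call was lost without sEH-/- replicate 2 (adjusted p 0.0612), and when wild-type replicate 2 (0.0861) or 3 (0.117) was left out. It was also lost with the library total as a covariate (0.0511) and in a test against the 1.5-fold threshold (0.195). In bulk RNA, fewer cells of a type and less RNA per cell cannot be told apart.

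Itgav encodes the αv subunit, the partner of β3 and β5 (ENSMUSG00000027087, plus strand of chr2:83724397-83806916). Itgav counts were 1424, 1207 and 1023 across sEH-/- replicates, against 1044, 1428 and 1075 across wild-type replicates, or 244, 244 and 237 CPM against 229.5, 232 and 193 CPM. The sEH-/- libraries stood close together just above the wild-type libraries, of which replicate 3 was the lowest, and the groups did not overlap. The log2 fold change of 0.15 ± 0.084 (SE) did not pass the test, with an adjusted p of 0.323. The sEH-/- mean was 241 ± 3.68 CPM, compared with 218 ± 21.9 CPM for the wild-type group (SD, n = 3), the opposite order from Itgb3.

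Itgb5 encodes β5, which also pairs with αv and also binds vitronectin (ENSMUSG00000022817, plus strand of chr16:33829665-33949338). Itgb5 counts were 1572, 1616 and 1474 across sEH-/- replicates, against 1410, 1581 and 1431 across wild-type replicates, or 269, 326 and 342 CPM against 310.0, 257 and 257 CPM. The highest wild-type library, replicate 1, lay within the range of the sEH-/- libraries, so the groups overlapped. Itgb5 changed by 0.19 ± 0.11 on the log2 scale (SE, adjusted p 0.342).

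The β subunits differ in their cytoplasmic tails, where talin and kindlin bind, so the last 48 codons of the coding sequence are shown for the β subunits among the members. The sequences come from the GRCm38 (mm10) genome and the GENCODE M21 annotation, each spans 2 coding exons, and capitals mark the codons of an NPxY or NPxF motif read in frame.
Itgb3: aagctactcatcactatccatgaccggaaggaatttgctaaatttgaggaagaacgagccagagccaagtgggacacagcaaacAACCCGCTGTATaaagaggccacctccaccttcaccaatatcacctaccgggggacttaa
Itgb5: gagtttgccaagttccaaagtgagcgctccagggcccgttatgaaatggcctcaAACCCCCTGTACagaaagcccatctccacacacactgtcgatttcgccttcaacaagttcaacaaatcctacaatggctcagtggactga
Itgb1: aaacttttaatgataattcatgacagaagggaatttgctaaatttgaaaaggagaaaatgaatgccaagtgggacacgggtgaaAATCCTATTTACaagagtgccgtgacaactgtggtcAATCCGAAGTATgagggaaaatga
Itgb2: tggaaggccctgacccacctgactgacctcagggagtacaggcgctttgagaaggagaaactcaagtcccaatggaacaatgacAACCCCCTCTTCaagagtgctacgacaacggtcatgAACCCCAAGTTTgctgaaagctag
The tail of Itgb3 ends at chr11:104667145 and that of Itgb5 at chr16:33948752, both on the plus strand. Itgb3 and Itgb5 each held 1 such motif, beginning 20 codons from the end in Itgb3 and 30 codons from the end in Itgb5, whereas Itgb1 and Itgb2 each held 2. Only NPxY and NPxF were searched for, so sites of another form, such as NxxY without the proline, are not marked or counted. No difference in talin or kindlin binding is read from these counts. Of 21547 genes with a coding end of this length, 0.784% held at least 1 such motif and 0.0232% held at least 2.

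The balance of both β subunits within a library does not depend on the library's scaling. Itgb3 made up 9.15%, 4.59% and 7.97% of the sum of Itgb3 and Itgb5 per kb in the sEH-/- libraries, against 12.5%, 26.7% and 19.1% in the wild-type ones. Each wild-type library had a larger Itgb3 share than each sEH-/- library, and wild-type replicate 2 had the largest. The mean share was 7.24% ± 2.37 in sEH-/- and 19.4% ± 7.08 in wild-type cells (SD, n = 3), a difference of -12.2 percentage points. Since the groups did not overlap, an exact two-sided permutation test over the libraries could only give p = 0.1. That is the smallest value that 20 allocations of 3 against 3 libraries can give, and no conclusion is drawn from it. Relative to its alpha partner, Itgb3 per kb was 0.336, 0.195 and 0.377 of Itgav in the sEH-/- libraries, compared with 0.584, 1.22 and 0.948 of it in the wild-type ones. Those values did not overlap, and in wild-type replicate 2 alone Itgb3 exceeded Itgav. For Itgb5 relative to Itgav the ratio was 3.91 ± 0.522 in sEH-/- and 3.82 ± 0.409 in wild-type cells (SD, n = 3), and the groups overlapped.

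**Figure D2:**
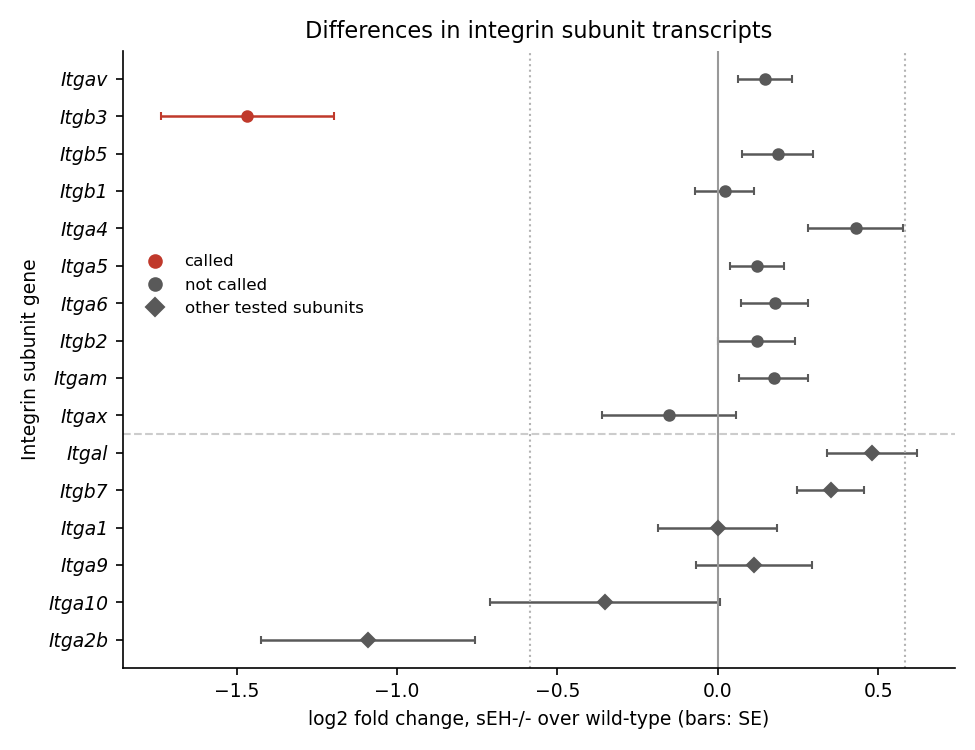
Log2 fold changes of sEH-/- over wild-type cells for the 10 members (circles) and the 6 other integrin subunits tested (diamonds), with bars of 1 SE and dotted lines at a 1.5-fold change. Itgb3 at -1.47 is the called gene, and 8 of the 10 members lie above 0.

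Itga2b encodes αIIb, the other alpha partner of β3, and is best known from platelets and megakaryocytes. Itga2b counts were 13, 9 and 10 across sEH-/- replicates, against 16, 38 and 21 across wild-type replicates. Each wild-type library again lay above each sEH-/- library in CPM, with replicate 2 the highest, at depths of few counts. The log2 fold change was -1.09 ± 0.33 (SE) and the adjusted p 0.0836, so it was not called. Among 9 platelet and megakaryocyte markers, 5 were in the table and all 5 were tested. The summed level of the list was 84.0, 75.9 and 78.6 CPM in the sEH-/- libraries, compared with 74.7, 66.4 and 68.7 CPM in the wild-type ones, most of it Pf4. Of the 5 markers 3 were above 0 in log2 fold change and 2 below, with a median of 0.18, and 1 was below an unadjusted p of 0.05. Gp6 was the called platelet marker, beside 2.61% called among all genes tested. It was higher in sEH-/- cells, with 24, 11 and 12 counts against 5, 4 and 5, a change of 1.80 ± 0.41 on the log2 scale (SE, adjusted p 0.0409). The Gp6 call was lost without sEH-/- replicate 1 (adjusted p 0.060) or 2 (0.0612) and without wild-type replicate 2 (0.210) or 3 (0.164). It was also absent with DESeq2 (0.0952), limma-voom (0.0505), the replicate block (0.0580), the library total as a covariate (0.0653) and the test against the 1.5-fold threshold (0.317), and so in 9 of the 17 alternatives.

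Stromal cells also express αv integrins, and a marker list for stromal and endothelial cells was therefore read beside Itgb3. All 9 markers were in the table and 7 were tested, with 0 called by edgeR, DESeq2 or limma-voom and 1 below an unadjusted p of 0.05. The summed level was 67.6, 72.4 and 63.3 CPM in the sEH-/- libraries, compared with 66.8, 121 and 72.6 CPM in the wild-type ones, with the most counts for Kdr. Wild-type replicate 2 had the highest sum, as it had the highest Itgb3 level. The collagen gene Col1a1, chosen after its values were seen, counted 31, 22 and 5 across sEH-/- replicates, against 4, 121 and 34 across wild-type replicates. Col1a2, chosen likewise, had 11, 30 and 7 counts against 8, 171 and 58. It was the 1 marker of the list called in any alternative, as lower without wild-type replicate 1 (adjusted p 0.0237). These 2 collagens were highest in wild-type replicate 2 and next in replicate 3, as Itgb3 was. Acta2, named with Col3a1 after the values were seen, had the same order, at 15.7 CPM in wild-type replicate 2, 15.6 CPM in replicate 3 and next 12.7 CPM in sEH-/- replicate 2. Col3a1 was at 7.14 CPM in wild-type replicate 2 but next at 3.59 CPM in sEH-/- replicate 1, and Kdr was highest in wild-type replicate 1 at 52.1 CPM. Of the 7 tested markers 5 had a log2 fold change below 0 and 2 above, with a median of -0.32, and the groups overlapped in all 7. The part of stromal transcripts in the Itgb3 difference was not tested. No marker of the list was at 0 in every library.

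**Figure D3:**
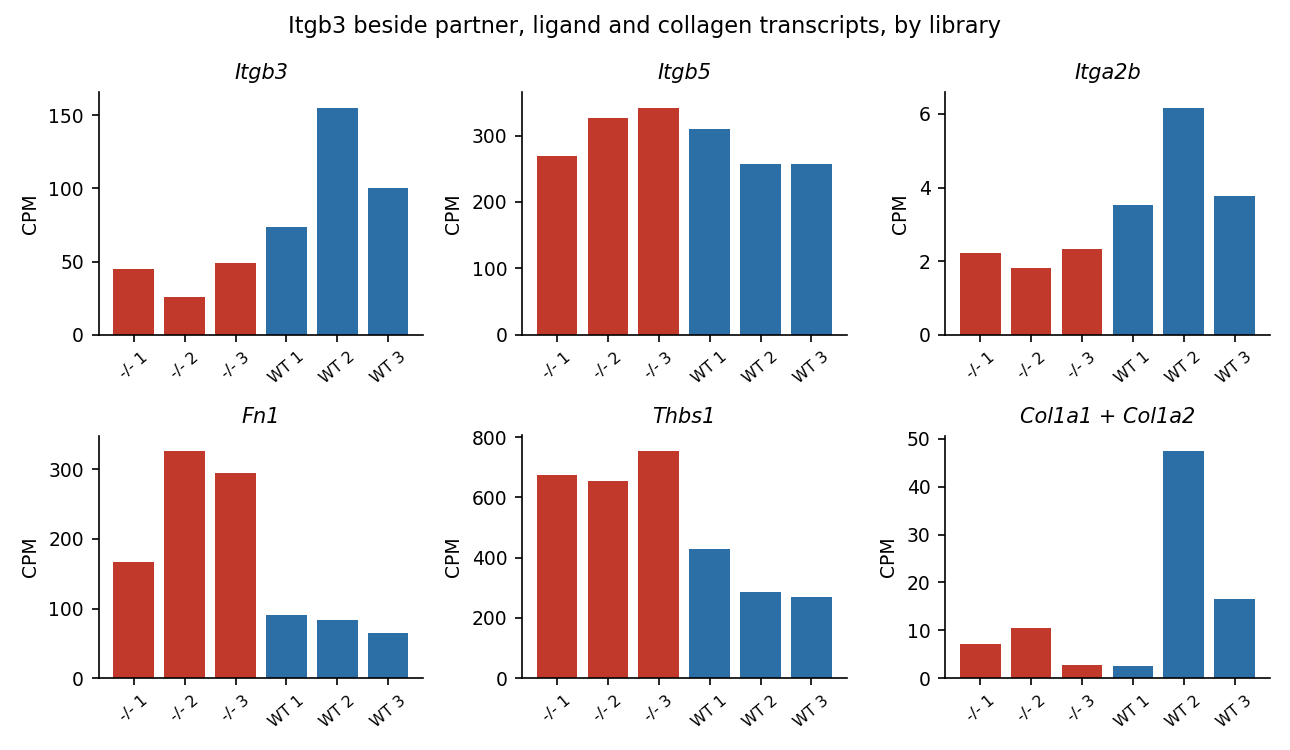
Levels in CPM in each library for Itgb3, the αv partner Itgb5, the β3 partner Itga2b, the ligands Fn1 and Thbs1, and the sum of Col1a1 and Col1a2, with sEH-/- libraries in red and wild-type libraries in blue. Itgb3, Itga2b and the collagens peak in wild-type replicate 2, whereas Fn1 and Thbs1 are higher in each sEH-/- library than in each wild-type library.

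Osteoclasts, which arise from the same precursors as macrophages, carry much αvβ3, and 8 of 10 osteoclast markers were tested. Their summed level was 917, 959.9 and 1045 CPM in the sEH-/- libraries, compared with 988, 889.5 and 927 CPM in the wild-type ones, an order over the 6 libraries that is the reverse of their depth. The part of osteoclasts in the Itgb3 difference was not tested. Atp6v0d2 had the most counts, with 1586, 1633 and 1672 counts against 1655, 1911 and 1839 and a log2 fold change of -0.02 that changed sign without sEH-/- replicate 1 (0.10) or wild-type replicate 1 (0.04). The log2 fold change was above 0 in 5 of the 8 and negative in 3, with a median of 0.04. The 2 called were higher in sEH-/- cells, beside 1.51% of all genes tested called as higher. Mmp9, a matrix protease, counted 603, 247 and 177 across sEH-/- replicates, against 68, 102 and 98 across wild-type replicates (log2 fold change 2.0 ± 0.31 SE, adjusted p 0.0160). Dcstamp, a cell fusion protein, had 142, 143 and 149 counts against 90, 99 and 88 (log2 fold change 0.76 ± 0.17 SE, adjusted p 0.0363). Without wild-type replicate 2 or 3 both calls were lost, at adjusted p 0.0744 and 0.107 for Mmp9 and 0.184 and 0.17 for Dcstamp, and the Dcstamp call was also lost without sEH-/- replicate 2 (0.0940) or 3 (0.0516) and with the replicate block (0.0704). In the test against the 1.5-fold threshold neither passed (0.0924 for Mmp9 and 1.0 for Dcstamp).

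Of the general macrophage markers, all 10 had a log2 fold change above 0, with a median of 0.27, but the groups overlapped for 8 of them. The number called was 0 by edgeR, 1 by DESeq2 and 0 by limma-voom. Below an unadjusted p of 0.05 were 5 of the 10, beside 3221 of all 13785 genes tested. Their summed level was 2183, 2726 and 2699.7 CPM in the sEH-/- libraries, compared with 2433, 1906 and 2009.8 CPM in the wild-type ones. Csf1r, the receptor for M-CSF, had 2476, 2628 and 2353 counts against 2191, 2410 and 2227, and changed by 0.24 ± 0.12 on the log2 scale (SE, adjusted p 0.265). Without wild-type replicate 1 the number of called macrophage markers was 2, and without sEH-/- replicate 1 it was 1. Cd14, named after its values were seen, passed by adjusted p alone (log2 fold change 0.50, adjusted p 0.0288). After correcting abundant genes for the upper limit of 1 count per exonic base, Cd14 was called (0.68, adjusted p 0.0125).

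Of 11 neutrophil markers, 8 were in the table and 2 were tested, with 0 called by edgeR, DESeq2 or limma-voom, 1 below an unadjusted p of 0.05, and 1 called by edgeR without sEH-/- replicate 1. Their summed level was 284, 333 and 359.9 CPM in the sEH-/- libraries, compared with 317, 266 and 272 CPM in the wild-type ones, nearly all of it Mmp8. Both tested markers had a log2 fold change above 0. The other one, S100a8, was at 24.0, 29.7 and 27.1 CPM against 17.1, 18.2 and 20.1 CPM, without overlap. Its log2 fold change was 0.54 (adjusted p 0.0570), and it is named after its values were seen. Of 9 dendritic cell markers, 5 were tested, and their summed level was 42.9, 42.6 and 71.4 CPM against 51.9, 69.0 and 60.9 CPM, led by Clec9a. Of the 5 tested, 4 had a log2 fold change below 0, with a median of -0.31. Below an unadjusted p of 0.05 were 3 of the 5, beside 3221 of all 13785 genes tested. Zbtb46 had 31, 16 and 40 counts against 42, 90 and 59 (log2 fold change -0.98, adjusted p 0.115), and Batf3 had 16, 22 and 17 against 25, 33 and 48 (-0.82, adjusted p 0.138), both named after their values were seen. The called dendritic cell marker, in the other direction, was Ccl22, beside 2.61% called among all genes tested. This chemokine had 77, 45 and 42 counts against 19, 29 and 31, a change of 1.15 ± 0.24 on the log2 scale (SE, adjusted p 0.0345). That call was lost without sEH-/- replicate 1 (adjusted p 0.0503) or 2 (0.0612) and without wild-type replicate 2 (0.168) or 3 (0.133), and without sEH-/- replicate 3 the number called in the list was 3, with Clec9a (0.0410) and Zbtb46 (0.0364) beside Ccl22. The Ccl22 call was lost too with the replicate block (0.0713) and in the test against the 1.5-fold threshold (0.438). Of 8 lymphocyte markers, 1 was in the table, Klrb1c, with 6 counts in all libraries together. The part of these other cell types in the integrin levels was not tested.

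The genes whose pattern was most like that of Itgb3 were ranked by Pearson correlation of log2 CPM over the 6 libraries, among 10277 genes that averaged 50 counts or more. The 5 highest were Mthfd1, Ncbp3, Fas, 1810013L24Rik and Rxylt1, with r between 0.996 and 0.998. They are named after their values were seen. The points share the same 6 libraries and their depth, so these values are a description without a test. These 5 genes were chosen for their likeness to Itgb3, so traits shared with it largely follow from the choice. In each of them the groups did not overlap, against 26.3% of all genes tested, and wild-type replicate 2 was the highest library. Their differences were far smaller, with log2 fold changes of -0.22 for Mthfd1, -0.35 for Ncbp3, -0.29 for Fas, -0.17 for 1810013L24Rik and -0.16 for Rxylt1, and none was called in edgeR, DESeq2 or limma-voom.

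The β1 group follows, with the common β1 subunit and the members that pair with it. Itgb1 encodes β1, the partner of many alpha subunits and a receptor chain for fibronectin, laminin and collagen (ENSMUSG00000025809, plus strand of chr8:128685654-128733200). Itgb1 counts were 1963, 1792 and 1709 across sEH-/- replicates, against 1769, 2097 and 1944 across wild-type replicates, or 336, 362 and 396 CPM against 389, 340.3 and 348 CPM. High and low libraries were mixed between the groups, which overlapped almost fully. Itgb1 changed by 0.02 ± 0.091 on the log2 scale (SE, adjusted p 0.916), and its sign changed without sEH-/- replicate 3 (-0.033) and when wild-type replicate 2 (-0.017) or 3 (-0.00067) was left out. Of the β subunits among the members it had the smallest difference. The sign also turned after correcting abundant genes for the upper limit of 1 count per exonic base, and with the library total as a covariate.

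Itga4 encodes α4, which with β1 binds VCAM-1 and a form of fibronectin (ENSMUSG00000027009, plus strand of chr2:79255426-79333123). Itga4 counts were 1013, 1012 and 818 across sEH-/- replicates, against 817, 819 and 614 across wild-type replicates, or 173, 204 and 189.7 CPM against 179.6, 133 and 110.1 CPM. Wild-type replicate 1 lay among the sEH-/- libraries, while the other wild-type libraries lay below all of them. The log2 fold change of 0.43 ± 0.15 (SE) was the highest among the members in the fit to all 6 libraries, at an adjusted p of 0.113 and an unadjusted p below 0.05. Without wild-type replicate 1 it was called, with a log2 fold change of 0.63 and adjusted p 0.0139, within a range of 0.0139 to 1.0 over the alternatives. A gene on the opposite strand, Cerkl, overlaps Itga4 and had 265 counts over all libraries, and reads were counted by strand.

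Itga5 encodes α5, which with β1 forms the classical fibronectin receptor (ENSMUSG00000000555, minus strand of chr15:103344286-103366763). Itga5 counts were 2283, 1965 and 1759 across sEH-/- replicates, against 1827, 2133 and 1959 across wild-type replicates, or 391, 397 and 408 CPM against 402, 346 and 351 CPM. Wild-type replicate 1 was level with the sEH-/- libraries, so the groups overlapped. Itga5 changed by 0.12 ± 0.084 on the log2 scale (SE, adjusted p 0.425).

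Itga6 encodes α6, a laminin receptor chain (ENSMUSG00000027111, plus strand of chr2:71745616-71858416). Itga6 counts were 595, 554 and 472 across sEH-/- replicates, against 471, 636 and 440 across wild-type replicates, or 102, 112 and 109 CPM against 104, 103 and 78.9 CPM. Wild-type replicate 3 was the lowest library and the others were close together across the groups. Itga6 changed by 0.18 ± 0.10 on the log2 scale (SE, adjusted p 0.343). Itga4, Itga5 and Itga6 thus shared the direction of Itgav, with a wild-type library inside the range of the sEH-/- libraries in each of them.

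The leukocyte integrins share the β2 subunit. Itgb2 encodes β2 (ENSMUSG00000000290, plus strand of chr10:77530252-77565708), which pairs with αM, αX and αL. Itgb2 counts were 2164, 2119 and 2141 across sEH-/- replicates, against 2030, 2245 and 2114 across wild-type replicates, or 370.2, 428 and 496 CPM against 446, 364 and 379 CPM. The raw counts were nearly the same in all libraries whatever their depth, and the groups overlapped in CPM. Itgb2 changed by 0.12 ± 0.12 on the log2 scale (SE, adjusted p 0.590).

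Itgam encodes αM, which with β2 forms complement receptor Mac-1 (ENSMUSG00000030786, plus strand of chr7:128062640-128118491). Itgam counts were 688, 728 and 673 across sEH-/- replicates, against 619, 700 and 685 across wild-type replicates, or 118, 147 and 156 CPM against 136, 114 and 123 CPM. The lowest sEH-/- library, replicate 1, lay within the wild-type range. Itgam changed by 0.17 ± 0.11 on the log2 scale (SE, adjusted p 0.372). A gene on the same strand, Gm49368, overlaps Itgam and had 56 counts over all libraries.

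Itgax encodes αX, the CD11c chain of another complement receptor that is abundant on dendritic cells and on macrophages grown with GM-CSF (ENSMUSG00000030789, plus strand of chr7:128129547-128150657). Itgax counts were 1051, 1350 and 1649 across sEH-/- replicates, against 1508, 1941 and 1549 across wild-type replicates, or 179.8, 272 and 382 CPM against 332, 315 and 278 CPM. The sEH-/- libraries held both the lowest and the highest value, and the wild-type libraries lay between them. Itgax was the member other than Itgb3 with a negative log2 fold change, -0.15 ± 0.21 (SE) with an adjusted p of 0.714, and the sign changed without sEH-/- replicate 1 (0.09). Itgax and Itgam are neighbours on chromosome 7, 11056 bases apart, and had opposite signs in the fit to all libraries. The ratio of Itgax to Itgam per kb was 1.60, 1.94 and 2.56 in the sEH-/- libraries, compared with 2.55, 2.90 and 2.37 in the wild-type ones, with overlap.

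Of 16 further integrin subunit genes listed, 14 were in the table and 6 were tested, while Itga2 and Itgb6 had no entry. By edgeR 0 of the 6 were called, as by DESeq2 and limma-voom, and the median log2 fold change was 0.06. Below an unadjusted p of 0.05 were 3 of the 6, beside 3221 of all 13785 genes tested. Itgal encodes αL, which with β2 forms LFA-1, with counts of 1865, 2154 and 1670 across sEH-/- replicates, against 1501, 1526 and 1343 across wild-type replicates. Wild-type replicate 1 at 330.0 CPM lay just above sEH-/- replicate 1 at 319 CPM, and the remaining libraries were apart. Itgal changed by 0.48 ± 0.14 on the log2 scale (SE, adjusted p 0.0740), and it was called without sEH-/- replicate 1 (adjusted p 0.0366) and without wild-type replicate 1 (0.0197), within a range of 0.00477 to 1.0 over the alternatives.

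Itgb7 encodes β7, a lymphoid homing subunit that pairs with α4, with counts of 737, 635 and 533 across sEH-/- replicates, against 535, 577 and 479 across wild-type replicates. All sEH-/- libraries were above all wild-type libraries in CPM, with means of 126 ± 2.28 and 99.0 ± 16.6 (SD, n = 3). The log2 fold change was 0.35 ± 0.10 (SE) with an adjusted p of 0.0770. Its log2 fold change had the same sign as that of its partner Itga4, and neither was called with all 6 libraries. The collagen and laminin receptor chain Itga1 had a mean of 30.2 CPM in sEH-/- libraries and of 30 CPM in the other group. Itga9, a chain that binds tenascin, had a log2 fold change of 0.11 (adjusted p 0.757), and Itga10, a collagen receptor chain, one of -0.35 (adjusted p 0.606). The 8 other genes with an entry, Itga3, Itga7, Itga8, Itga11, Itgad, Itgae, Itgb4 and Itgb8, were not tested and had at most 27 counts each over all libraries.

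Ordered by level per kb of exon, Itgb2 was highest in both groups, with 141 ± 20.7 CPM per kb in sEH-/- and 129.9 ± 14.3 in wild-type cells (SD, n = 3). In sEH-/- cells Itgb1 (89.3), Itgb5 (87.9), Itga5 (80.7) and Itgax (57.9 CPM per kb) came next, and each overlapped its neighbour over the libraries. Itgam (27.9), Itgav (22.5), Itga4 (13.5) and Itga6 (11.9) followed, with Itgb3 last at 6.79 ± 2.09 CPM per kb. In wild-type cells the order down to Itgav was the same, and Itgb3 was next at 18.6 ± 7.02, ahead of Itga6 (10.5) and Itga4 (10.1 CPM per kb). Itgb3 overlapped Itgav there, and Itga6 overlapped Itga4, as Itgb1, Itgb5 and Itga5 overlapped each other in turn. Itgb3 was therefore rank 8 of the 10 in wild-type and rank 10 in sEH-/- cells, and the ranks were the same after correcting for the upper limit of 1 count per exonic base. Its αv-pairing relative Itgb5 was at a higher level than Itgb3 in every library.

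Matrix and bridging ligands of integrins were read from a list of 20 genes, of which 19 were in the table and 17 were tested, while Vtn, the gene for vitronectin, had no entry. Of the 17, 2 were called, both higher in sEH-/- cells, beside 1.51% of all genes tested called as higher. The median log2 fold change was 0.12. Fn1 encodes fibronectin, the ligand of the α5β1, α4β1 and αv integrins, with counts of 976, 1614 and 1271 across sEH-/- replicates, against 414, 518 and 365 across wild-type replicates. Each sEH-/- library was well above each wild-type library, with means of 262 ± 84.1 and 80.2 ± 13.2 CPM (SD, n = 3). The log2 fold change was 1.71 ± 0.22 (SE) with an adjusted p of 0.00866. The fibronectin transcript was thus higher where Itgb3 was lower, while the transcripts of its β1 receptor chains Itga5 and Itgb1 were not called.

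Thbs1 encodes thrombospondin-1, which binds αvβ3 and CD47 and can activate latent TGF-β, with counts of 3945, 3247 and 3245 across sEH-/- replicates, against 1953, 1773 and 1504 across wild-type replicates. The groups were well apart, with means of 694 ± 51.4 and 329 ± 87.5 CPM (SD, n = 3). Thbs1 changed by 1.08 ± 0.16 on the log2 scale (SE, adjusted p 0.0137). Without wild-type replicate 2 the Thbs1 call was lost (adjusted p 0.0744), and without wild-type replicate 3 both were lost (0.0939 for Thbs1 and 0.0841 for Fn1), out of ranges over the alternatives of 0.000214 to 0.195 and 1.65e-05 to 0.0841. In the test against the 1.5-fold threshold neither passed (0.195 and 0.0633). Without wild-type replicate 1 the list had 5 calls, since Postn, Tnc and Ccn1, which are named after their values were seen, were then called as lower (adjusted p 0.0303, 0.0282 and 0.0457). After Thbs1 the most counts in the list were those of Tgfbi, with a log2 fold change of 0.20 (adjusted p 0.397), and Mfge8, a bridge between αv integrins and apoptotic cells, with 0.11 (adjusted p 0.62).

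Ligands on other cells and in plasma were 17 genes, of which 13 were in the table and 10 were tested. By edgeR and limma-voom 0 were called and by DESeq2 1, Icam2, and the median log2 fold change was 0.15. Below an unadjusted p of 0.05 were 6 of the 10, beside 3221 of all 13785 genes tested. C3, whose fragment iC3b is bound by αMβ2 and αXβ2, counted 2805, 2950 and 3101 across sEH-/- replicates, against 2108, 2287 and 2055 across wild-type replicates. All sEH-/- libraries were higher, and the log2 fold change of 0.58 ± 0.15 (SE) came with an adjusted p of 0.0549. With DESeq2 the adjusted p of C3 was 0.000332, at a log2 fold change (0.58) just under the fold threshold, and with the replicate block it was 0.112. After correcting for the upper limit of 1 count per exonic base C3 was called (0.79, adjusted p 0.0327), 1 of 3 calls over the 17 alternatives. Without sEH-/- replicate 1 C3 was called (adjusted p 0.0221), with Vcam1 as higher (0.0343) and Icam4 as lower (0.0409), and without wild-type replicate 1 C3 was called again (0.0277). Icam2, a ligand of LFA-1, had 141, 116 and 68 counts against 64, 64 and 75, with an adjusted p of 0.0616 that became 0.0224 without sEH-/- replicate 3. Icam2, Icam4 and Vcam1 are named after their values were seen. Cd47, with the most counts after C3, had a log2 fold change of 0.24 (adjusted p 0.138), and Icam1, a ligand of LFA-1 and Mac-1, one of 0.06 (adjusted p 0.688).

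Proteins that switch integrins on and join them to actin were 38 genes, of which 37 were in the table and 36 were tested. Of the 36, 1 was called, beside 2.61% of all genes tested. The median log2 fold change was 0.10, with 26 above 0 and 10 below, beside 49.8% above 0 over all tested genes. Groups did not overlap for 13 of the 36, or 36.1%, against 26.3% of all genes tested. Rasgrp2 encodes CalDAG-GEFI, which activates Rap1 upstream of talin, with counts of 84, 89 and 71 across sEH-/- replicates, against 39, 36 and 33 across wild-type replicates. The groups were far apart relative to their spread, at 16.3 ± 1.80 and 6.78 ± 1.56 CPM (SD, n = 3). Its log2 fold change was 1.27 ± 0.21 (SE) with an adjusted p of 0.0182. The Rasgrp2 call was lost without sEH-/- replicate 2 (adjusted p 0.0573), and when wild-type replicate 2 (0.114) or 3 (0.123) was left out, and without sEH-/- replicate 1 Fgr was called as well (0.00990). Rasgrp2 did not pass the test against the 1.5-fold threshold (0.195).

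By adjusted p alone, 4.01% of all genes tested passed, and Ptk2 was among them. Ptk2, the focal adhesion kinase, had 63.0, 66.4 and 61.7 CPM in the sEH-/- libraries, compared with 78.0, 92.5 and 87.5 CPM in the wild-type ones, lower in each sEH-/- library as Itgb3 was. Ptk2 changed by -0.44 ± 0.085 on the log2 scale (SE, adjusted p 0.0276). It no longer passed without sEH-/- replicate 2 (adjusted p 0.0690), or without wild-type replicate 2 (0.153) or 3 (0.139). Nor did Ptk2 pass the test against the 1.5-fold threshold. Ptk2 and Fgr are named after their values were seen. The genes of the list with the most counts were Flna (log2 fold change 0.14, adjusted p 0.443), Tln1 for talin-1 (0.19, adjusted p 0.227) and Syk (-0.03, adjusted p 0.892), the last with a sign that changed without sEH-/- replicate 1 (0.01) or 2 (0.01) or wild-type replicate 1 (0.02). Transcripts of the tail-binding protein talin-1 were thus not called while the tail-bearing Itgb3 was.

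Latent TGF-β and the proteins that store or present it, from which αv integrins release the active form, were 9 genes with 7 tested. By edgeR, DESeq2 and limma-voom 0 were called, with 1 below an unadjusted p of 0.05 and a median log2 fold change of -0.03. Tgfb1 counts were 998, 985 and 851 across sEH-/- replicates, against 842, 1036 and 979 across wild-type replicates, with a log2 fold change of 0.10 (adjusted p 0.50). Nrros, which presents latent TGF-β1 on myeloid cells to αv integrins, had one of 0.11 (adjusted p 0.456), and Ltbp3 one of 0.14 (adjusted p 0.492).

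**Figure D4:**
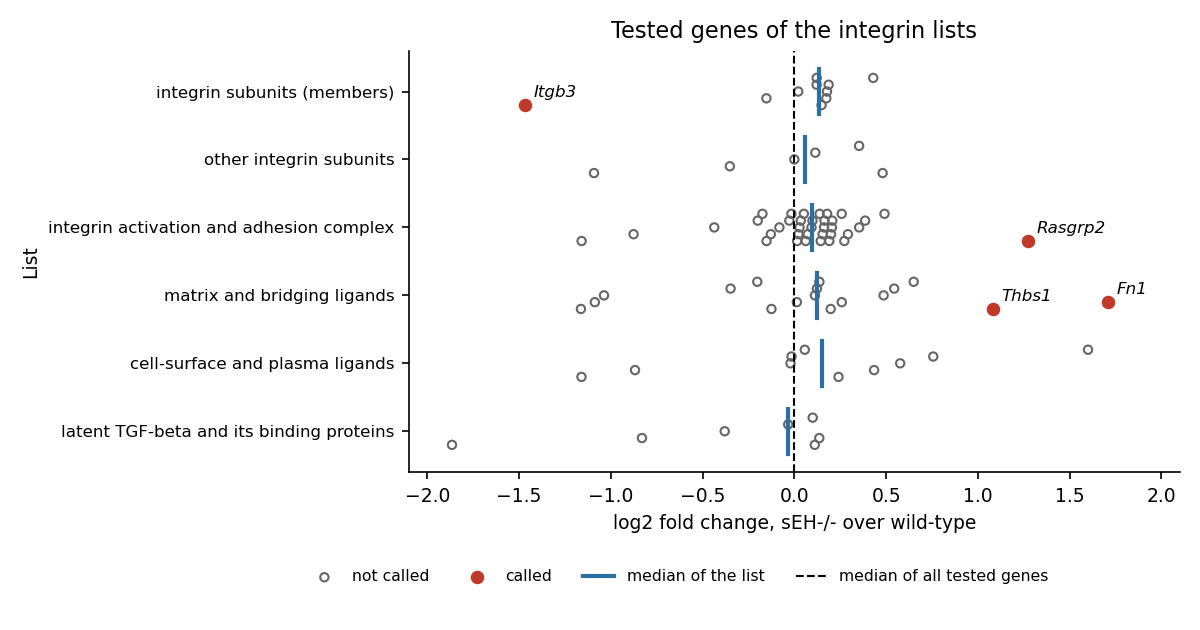
Log2 fold change of each tested gene of the members and of the 5 lists of related genes, with called genes filled and named, a bar at the median of each list and a dashed line at the median of all tested genes (-0.00092). The medians lie between -0.03 and 0.15, and the called genes are Itgb3 on the left and Rasgrp2, Thbs1 and Fn1 on the right.

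Duplicate reads had been removed from these libraries, which limits how far the count of a gene can follow depth. The members had between 0.0585 (Itga6) and 0.70 (Itgb2) counts per exonic base on average, beside a median of 0.0567 over all tested genes. Wild-type replicate 2 was 1.32 times as deep as wild-type replicate 1, and among all tested genes the median ratio of their counts was 1.38 between 0.05 and 0.1 counts per base but 1.10 between 0.5 and 1. For Itgb2 the ratio was 1.11, for Itgb5 1.12 and for Itga5 1.17, below the depth ratio, while Itgav had 1.37 and Itga6 1.35. Itgb3 had a ratio of 2.85, far above that of its range of counts per base, and Itga4 had 1.0. Among all 1429 genes tested between 0.2 and 0.5 counts per base, where Itgb5, Itgb1, Itga5 and Itgax lie, 65.6% had a log2 fold change above 0, with a median of 0.05. Among the 92 genes above 0.5, the range of Itgb2, the median was 0.09 and 85.9% were above 0. In the edgeR fit to counts corrected for this limit, Itgb3 had a log2 fold change of -1.52 (adjusted p 0.0250), against -1.47 without the correction. The median of the members was 0.15 against 0.13, with 7 above 0 against 8. Beyond these values, the part of this limit in the differences of the members was not tested.

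**Figure D5:**
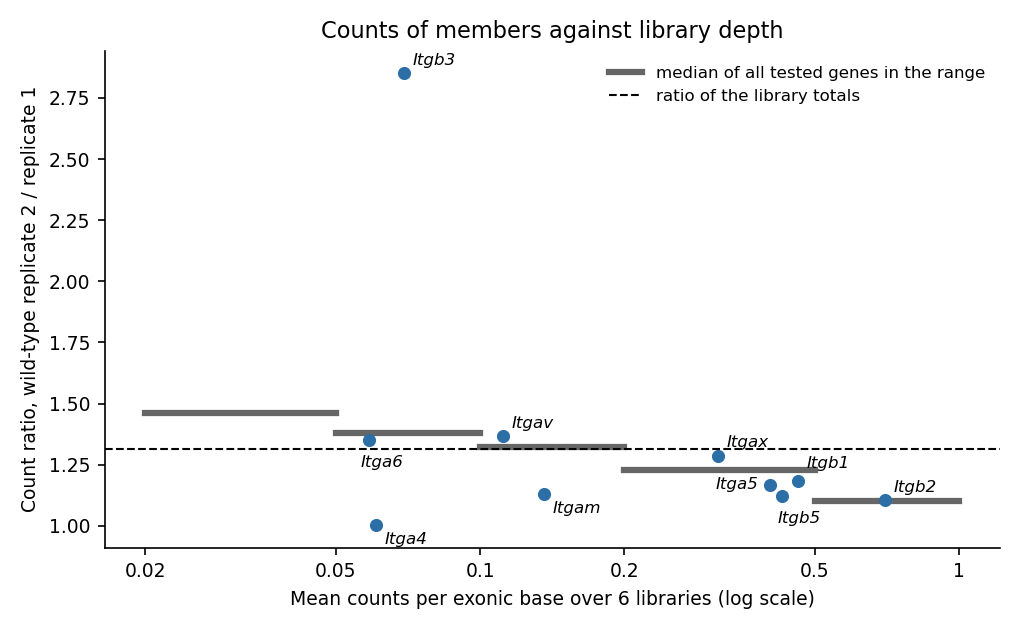
Ratio of the counts of wild-type replicate 2 to those of replicate 1 for each member, against its mean counts per exonic base on a log axis, with grey bars at the median ratio of all tested genes in each range and a dashed line at the ratio of the library totals (1.32). Itgb3 lies at 2.85, and the abundant Itgb2 at 1.11 lies below the ratio of the totals.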

How the data were processed

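RNA of M2c macrophages from 3 sEH-/- and 3 wild-type mice had been sequenced. The authors deposited raw counts per gene: they trimmed reads with Trimmomatic, aligned them to mm10 with STAR, removed duplicates with Picard, and counted exonic reads by strand with featureCounts. These deposited counts carry no normalization. Tool versions, and the RNA input and library kit, differ between labels and methods. Counts were fitted here over the whole table with edgeR 4.0.16 in R 4.3.3 (TMM, glmQLFit and glmQLFTest, two-sided, no covariates). Genes averaging more than 5 counts were tested, which kept 99.8% of counts. The SE is the log2 fold change over the square root of the F statistic. Exonic lengths, overlaps and coding ends came from GENCODE M21. The pipeline was tested on simulated data. The integrin subunits and all lists were chosen with earlier results of these data known. Named genes are Ephx2, the members, other tested subunits, each list's called genes and 3 with the most counts, each marker list's called genes and the 1 with the most counts, and the 5 genes most like Itgb3; the remaining ones were named after their values were seen. Alternatives were DESeq2 1.42.0, limma-voom 3.58.1, other normalizations and filters, a replicate block, leaving out each library, adjusted p alone, a test against the fold threshold (glmTreat), a correction for saturated counts and the library total as a covariate. No protein or promoter sequence is shown.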

Additional observations from a re-analysis of the deposited data

How the results depend on the processing

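Over 17 alternatives, Itgb3, Itgav, Itgb5, Itgb2, Itga4, Itga5, Itga6 and Itgam kept the direction of their log2 fold change, and Itgb1 and Itgax did not. Adjusted p alone and glmTreat reuse the log2 fold changes of the reported fit and could not change a direction. The number of called members was 0 with glmTreat and 0 with the library total as a covariate, and 0 to 2 when 1 library was left out. Over all tested genes, 234 were called with the replicate block, 553 by adjusted p alone, 10 with glmTreat, 171 with the covariate, and 6 to 625 when 1 library was left out. For the replicate block, same-number replicates showed no pairing, with correlations between -0.260 and -0.0367.

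In the adhesion complex 3 genes passed by adjusted p alone, 0 with glmTreat, 2 with the ceiling correction, and 0 to 2 with 1 library left out. For matrix ligands these were 0 with glmTreat and 0 to 5 with 1 library left out. For cell-surface and plasma ligands 1 was called with DESeq2, 1 with no filter, 1 with the ceiling correction, and 0 to 3 with 1 library left out. Among other integrin subunits 0 to 1 were called with 1 library left out. No call was made for latent TGF-β genes in these 17 alternatives by edgeR, DESeq2 or limma-voom.

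Several log2 fold changes changed sign. Itgb1 had -0.0056 with the ceiling correction and -0.027 with the covariate, and -0.033 to 0.081 with 1 library left out. Itgax had -0.44 to 0.087, Syk -0.075 to 0.018, Atp6v0d2 -0.15 to 0.10 and Kdr -0.17 to 0.14 with 1 library left out, and Kdr 0.013 with limma-voom. Col1a1 had -1.78 to 0.044 with 1 library left out. Col3a1 had 0.13 with the covariate and -1.0 to 0.58 with 1 library left out. Itga1, at -5.74e-05 in the reported fit, had 0.013 with DESeq2, 0.0075 with RLE factors, 0.0017 with filterByExpr, 0.0040 with the replicate block, 0.013 with the ceiling correction and -0.19 to 0.15 with 1 library left out. The difference in the Itgb3 share kept its sign, at -16.9 points from raw counts, -10.8 points with the ceiling correction and -15.6 to -8.56 points with 1 library left out. The cause of these changes was not tested.

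With 3 mice a group, 1 library could decide a call, and glmTreat called 10 genes in all. Counts of abundant subunits such as Itgb2 followed depth weakly. Transcript levels say nothing of the amount of integrin protein or of its activation at the cell surface, and bulk RNA does not separate cell types.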
